A study of Homo sapiens with 8 samples.

Results

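The genes described here are 10 mRNAs known from other work as targets of the miR-130 and miR-301 family: TP53INP1, CYLD, NKRF, TSC1, RUNX3, PPARG, MEOX2, CSF1, SOCS5 and ZFPM2. They were followed after silencing of KHSRP in KYSE850 cells, a human line derived from a squamous cell carcinoma of the esophagus. KHSRP is an RNA-binding protein that takes part in mRNA decay and in the maturation of some miRNAs. The members were all probes on the arrays whose RefSeq accession maps to one of these symbols, which gave 14 probes for 9 of the 10 genes, out of 42405 probes in all. NKRF, a repressor of NF-κB target genes, had no probe with such an accession and its level is not analysed here.

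The mRNA of 4 control siRNA and 4 KHSRP siRNA samples was read on 8 one-colour Agilent arrays. Both groups were the same unmodified cell line with a transfected siRNA, so that the siRNA was the labelled difference. The study used several KHSRP siRNAs, and the labels do not say which of them was on which array, how long it acted, or whether the 4 arrays of a group came from separate cultures, so that p-values measure the spread between these arrays, which may be technical. A level is the log2 signal of a probe relative to the 75th percentile of all probes on its array, so that a level of 0 is the signal at that percentile. Levels of different probes are not compared. A change is the level with KHSRP siRNA minus that with control siRNA on the log2 scale. A probe was tested when it was well above background on all 4 arrays of at least 1 group, and it is said to be called at an adjusted p under 0.05 in limma, over all tested probes.

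An miRNA is a short RNA that guides a silencing complex to mRNAs, mostly through its seed, bases 2 to 8 from the 5′ end. mRNAs with a match to the seed are as a rule destabilised or translated less, so that targets tend to be higher where their miRNA is lost. The miR-130 and miR-301 family is known in several carcinomas for acting on tumour suppressor mRNAs. The study asked whether KHSRP acts through miR-130b and miR-301a among others, and the targets of these miRNAs were therefore the mRNAs to follow.

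The mature sequences are shown because the shared seed is what joins these targets, and capitals mark the seed. They were taken from RefSeq with the coordinates of GRCh38.p14, and 4 of the 5 family members considered were found (miR-130a-3p is named only).
hsa-miR-130b-3p: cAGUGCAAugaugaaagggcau
hsa-miR-301a-3p: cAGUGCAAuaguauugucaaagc
hsa-miR-301b-3p: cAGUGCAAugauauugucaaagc
hsa-miR-454-3p: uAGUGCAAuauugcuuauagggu
The 4 sequences had the same seed, which 6 of the 2370 mature miRNA names in the table hold, the other two being miR-3666 and miR-4295. Outside the seed they diverged. miR-301a-3p and miR-301b-3p were identical at 21 of 23 positions counted from the 5′ end, whereas miR-130b-3p and miR-301a-3p were identical at 11 of 22 positions, the first 9 of which were an unbroken run. miR-130b-3p lies at chr22:21653354-21653375 on the plus strand and miR-301b-3p at chr22:21653025-21653047 on the same strand. miR-301a-3p lies at chr17:59151149-59151171 and miR-454-3p at chr17:59137787-59137809, both on the minus strand.

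KHSRP has been described to bind the terminal loop of miRNA precursors, so the hairpins of the pair of miRNAs that the study followed are shown whole, with the mature 3p arm in capitals and the loop just before it.
MIR130B: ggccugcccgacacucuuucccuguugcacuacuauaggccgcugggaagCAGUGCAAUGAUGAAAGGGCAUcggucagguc
MIR301A: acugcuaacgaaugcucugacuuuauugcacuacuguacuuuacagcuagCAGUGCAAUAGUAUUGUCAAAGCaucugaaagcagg
The arm starts at base 51 of both hairpins, which are 82 and 86 bases long. The arrays measured mRNA, and MIR130A, MIR130B, MIR301A, MIR301B and MIR454 had no probe, so that the miRNAs themselves were not measured here. SKA2, a mitotic protein whose gene hosts miR-301a and miR-454 in an intron, was lower with KHSRP siRNA by both of its tested probes, with changes of -0.84 (A_32_P55860, SE 0.15, adjusted p = 0.0175) and -0.87 (A_24_P945000, SE 0.10, adjusted p = 0.00317). The first of these lost its call without control siRNA replicate 1 or 2, or without replicate 4 of the KHSRP siRNA group (adjusted p from 0.0504 to 0.0638). The probes read the host mRNA and not the miRNA.

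The knockdown was seen on every array. In RNA from whole cultures, fewer cells with an mRNA and less of it per cell cannot be told apart. The KHSRP level (A_23_P16157) was 6.03, 5.81, 6.39 and 6.08 with control siRNA and 2.52, 2.58, 2.88 and 2.85 with KHSRP siRNA, a change of -3.37 (SE 0.16, adjusted p = 5.95e-05). Squamous markers fixed for the cell type were all well above background on the 8 arrays, with KRT5, a basal keratin, at levels from 2.92 to 5.98. Of the markers of other cell types, PECAM1 (endothelium) was well above background on 0 arrays and PTPRC (leukocytes) on 4, and COL1A1, CD14 and DES were so on all 8. Of 18761 tested probes, 1039 (5.54%) were called, and by gene, with the brightest probe for each, 751 of 12125 (6.19%).

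Of the 10 targets 6 were bright enough to be tested, with 9 probes, and 0 were called, against 5.54% of all tested probes. At its brighter probe PPARG was higher with KHSRP siRNA than every control on all 4 arrays, SOCS5 was lower on all 4, TP53INP1 was lower by the largest amount but spread widely within each group, and the groups overlapped for RUNX3, TSC1 and CSF1. Of the 9 probes, 3 had an unadjusted p under 0.05 in limma, against 19.6% of all tested probes. The groups did not overlap for 2 of the 9, against 14.8% of all. Among the 6 genes, each by its brightest tested probe, 3 were higher and 3 lower with KHSRP siRNA, and the median change was 0.074. By probe, 6 were higher and 3 lower, with a median of 0.22 beside 0.012 over all tested probes. PPARG, RUNX3 and CSF1 enter the count by probe more than once. CSF1 counted as lower with a change of -0.040 (SE 0.21), and its other tested probe had 0.23 (SE 0.28). Each of these CSF1 probes passed the filter only through the group in which it read higher, so their directions are tied to the filter.

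**Figure D1:**
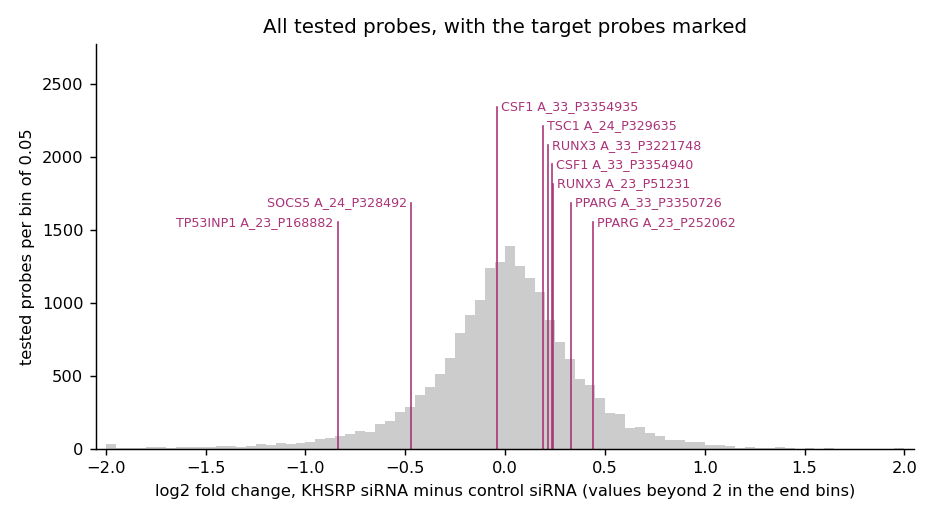
Histogram of the change (log2, KHSRP siRNA minus control siRNA) of all 18761 tested probes, with the 9 target probes as lines. SOCS5 and TP53INP1 lie in the lower flank and both PPARG probes in the upper flank, and the other 5 lie nearer the centre. The line heights only separate the names.

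The arrays carry numbers in both groups, and the deposited scanner files and series matrix number KHSRP siRNA replicates 3 and 4 in opposite order. Arrays that share a series matrix number deviated together from their group means, whereas the scanner file numbers did not, as detailed with the processing. Some arrays of different numbers on different slides did so too, so that the pairs are not settled by this. The numbering used in the text is that of the scanner files. A fit that compared arrays within the pairs of the series matrix, here called the series matrix block, is therefore given beside each result whose call it changes. Its pairing was taken from these same data. That fit called 4 of the 9 target probes, which belong to PPARG, RUNX3, SOCS5 and TP53INP1, and 30.1% of all tested probes. Called higher were PPARG at its brighter probe and RUNX3 at its dimmer probe alone, and called lower were SOCS5 and TP53INP1. By the brightest tested probe of each gene, 3 of the 6 genes were called.

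**Figure D2:**
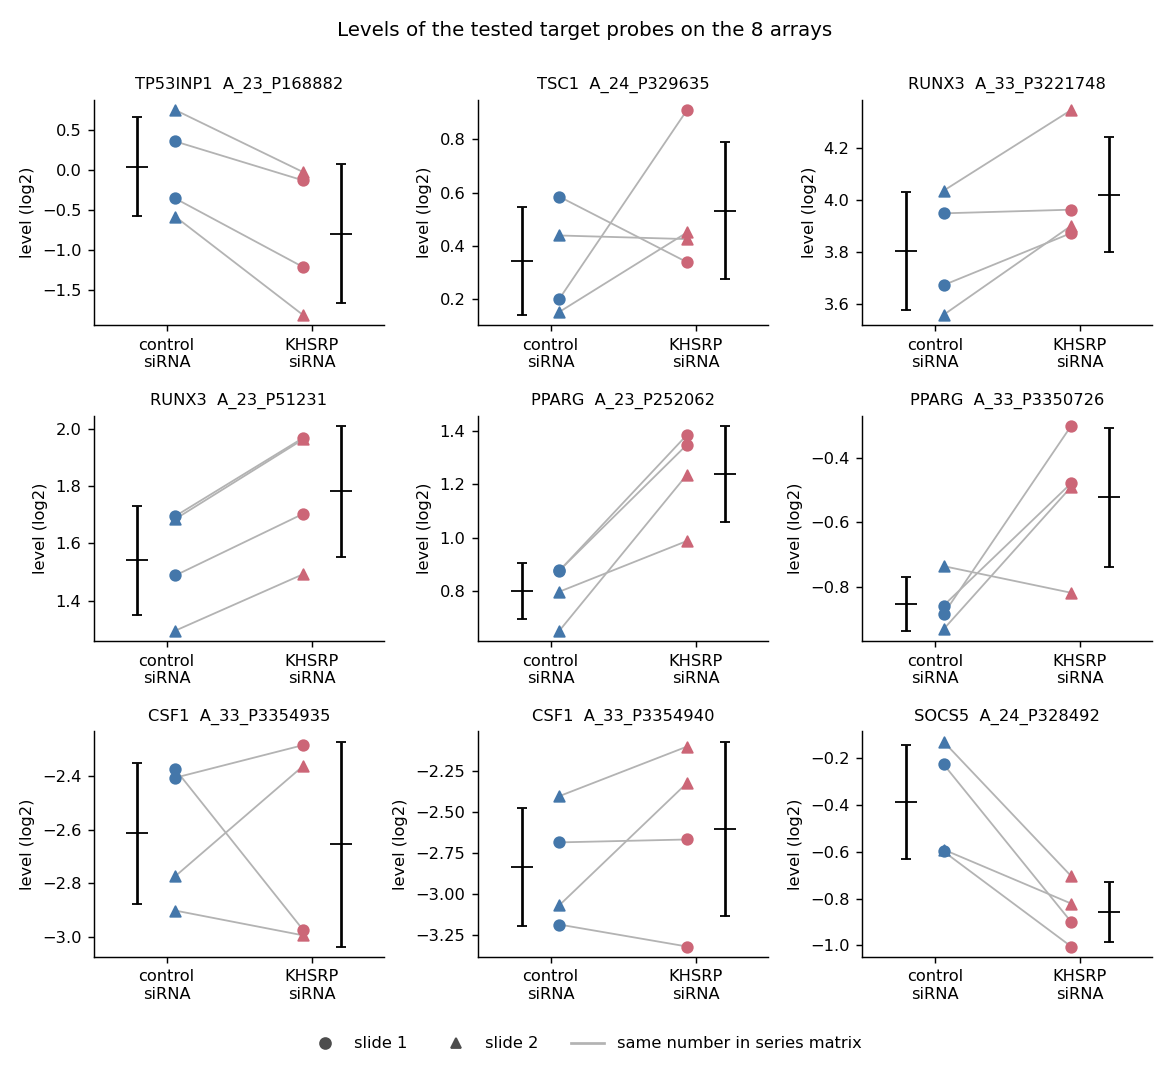
Level (log2, relative to the 75th percentile of the array) of the 9 tested target probes on each array, circles for slide 1 and triangles for slide 2, with the group mean and SD in black beside the points (n = 4 each). Grey lines join arrays that share a series matrix number. All 4 lines fall for TP53INP1 and SOCS5, all 4 rise for both RUNX3 probes and for PPARG A_23_P252062, and the lines cross for TSC1 and CSF1.

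PPARG encodes the nuclear receptor PPARγ, which drives fat cell genes and has been tied to differentiation in epithelia. Its level at A_23_P252062 was 0.88, 0.88, 0.65 and 0.80 on control siRNA replicates 1 to 4, and 1.39, 1.35, 0.99 and 1.24 on KHSRP siRNA replicates 1 to 4. Every KHSRP siRNA array exceeded every control, and the lowest of them, replicate 3, was the nearest to the controls. The group means were 0.80 ± 0.11 and 1.24 ± 0.18 (SD, n = 4 each), a change of 0.44 (SE 0.13, 95% interval 0.15 to 0.73, adjusted p = 0.0854), or 1.36-fold. Of the 9 target probes this had the smallest adjusted p. The probe was called with slide as a block (adjusted p = 0.0491), in a fit that called 6.23% of all tested probes. It was also called with the series matrix block (SE 0.086, adjusted p = 0.0159), which called 30.1% of them. It was called in 2 of 21 alternatives, with an adjusted p from 0.0159 to 0.993. The change was 0.49 within slide 1 and 0.39 within slide 2.

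The second PPARG probe, A_33_P3350726, read -0.89, -0.86, -0.93 and -0.74 with control siRNA and -0.30, -0.48, -0.82 and -0.49 with KHSRP siRNA. Only KHSRP siRNA replicate 3 fell within the range of the controls. The change was 0.33 (SE 0.13, adjusted p = 0.207), in the same direction as at the first probe, and it was called in 0 of 21 alternatives. Leaving out 1 array at a time gave changes from 0.26 to 0.43.

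Receptors and cofactors that act with PPARG had higher point estimates with KHSRP siRNA at all tested genes (NCOR1 turned to -0.0031 under median scaling). Of these 0 were called, against 6.19% of all genes. PPARA and PPARD are the other receptors of its group, RXRA, RXRB and RXRG their dimer partners, and NCOR1 a corepressor. Of the 7 genes listed 6 were tested, with a median change of 0.15 beside 0.012 over all tested probes. The changes of PPARD, RXRA and NCOR1 (0.096, 0.11 and 0.071) were smaller than their SE (0.15, 0.42 and 0.23). PPARA had a change of 0.52 (SE 0.15, adjusted p = 0.0848) and was called with the series matrix block (adjusted p = 0.0338). That block called 2 of the 6 genes, and 30.1% of all tested probes. RXRG was not well above background on any array. Among the 3 genes whose tested probe followed PPARG A_23_P252062 most closely over the 8 arrays, by Pearson's r across both groups, were PRR5 (r = 0.972), a subunit of mTORC2, and AHNAK2 (r = 0.963). These 8 arrays share the knockdown contrast, and the values are a description.

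SOCS5 belongs to the suppressors of cytokine signalling, which restrain receptor and JAK-STAT signals. Its single probe (A_24_P328492) read -0.60, -0.23, -0.59 and -0.13 with control siRNA and -1.01, -0.90, -0.70 and -0.82 with KHSRP siRNA. The KHSRP siRNA arrays all lay below the controls, of which replicates 1 and 3 came nearest. The group means were -0.39 ± 0.24 and -0.86 ± 0.13 (SD, n = 4 each), a change of -0.47 (SE 0.15, 95% interval -0.81 to -0.14, adjusted p = 0.109). With the series matrix block, which called 30.1% of all tested probes, the probe was called as lower (SE 0.092, adjusted p = 0.0159). It was called in 1 of 21 alternatives altogether, with an adjusted p from 0.0159 to 0.9999. Within the slides the change was -0.54 and -0.40.

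Among the rest of the SOCS family and the JAK-STAT pathway, 12 of 14 genes were tested, with a median change of 0.017 and 6 of the 12 higher. Of the 12, 1 was called, against 6.19% of all genes, and is not reported here. SOCS1, a close relative that binds JAK kinases, had a change of 0.50 (SE 0.34, adjusted p = 0.493, and 0.00482 with the series matrix block, which called 30.1% of all tested probes). SOCS2, SOCS3 and SOCS4 had changes of -0.085, 0.059 and -0.043 and were not called in either fit. SOCS6 and STAT5A were not well above background on any array.

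TP53INP1 is a stress-induced protein that takes part in cell death and autophagy, and is a much studied target of miR-130b. Its brighter probe, A_23_P168882, read -0.35, 0.36, -0.58 and 0.75 with control siRNA and -1.21, -0.13, -0.022 and -1.81 with KHSRP siRNA. The groups overlapped, since KHSRP siRNA replicates 2 and 3 lay above control replicates 1 and 3. The group means were 0.045 ± 0.62 and -0.79 ± 0.87 (SD, n = 4 each), a change of -0.84 (SE 0.46, 95% interval -1.88 to 0.20, adjusted p = 0.374). This was the largest change of the 9 probes, below all but 3.03% of all tested probes.

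Between arrays that share a series matrix number TP53INP1 was lower with KHSRP siRNA in 4 of 4 pairs, by -0.86, -0.49, -1.23 and -0.78. The share of all tested probes that kept their direction in 4 of 4 pairs is not given here, and the pairing was taken from these same data. With these numbers as a block TP53INP1 was called as lower (SE 0.13, 95% interval -1.15 to -0.52, adjusted p = 0.00784), in a fit that called 30.1% of all tested probes. With the numbers of the scanner files as a block the adjusted p was 0.504. It was called in 1 of 21 alternatives, with an adjusted p from 0.00784 to 0.9999, and its sign was the same in each.

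The spread of TP53INP1 within the groups ran opposite to that of squamous keratins. In the controls replicates 2 and 4 had the higher TP53INP1 levels, and with KHSRP siRNA replicates 2 and 3 had. KRT5 was lower on these arrays, at 4.30 and 3.11 in the controls and 4.46 and 2.92 with KHSRP siRNA, than on the others, at 5.84 and 5.84 in the controls and 5.92 and 5.98 with KHSRP siRNA. KRT14, KRT6A, TP63, DSG3 and SFN were likewise lower on those arrays within each group, and CDH1 was so with KHSRP siRNA but not in the controls, where replicate 4 read -0.15 and replicate 1 read -0.16. The arrays of higher TP53INP1 also shared a slide row, row 2 in the controls and row 1 with KHSRP siRNA. The other arrays of each group were on the opposite row. The part of the keratin difference or of the row in the TP53INP1 values was not tested. The second TP53INP1 probe (A_33_P3421163) was well above background on the 4 arrays of higher TP53INP1, at levels from -3.02 to -2.38, and not on the others, so it was not tested.

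Among the 5 partners listed for TP53INP1 were the nuclear kinase HIPK2, TP73, TP53INP2 and the autophagy protein MAP1LC3B. Of the 5, 4 were tested and 0 were called, against 6.19% of all genes. HIPK2 had a change of -0.43 (SE 0.15, adjusted p = 0.145) and was called with the series matrix block (adjusted p = 0.0121), which called 30.1% of all tested probes.

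RUNX3 is a transcription factor often described as a tumour suppressor in the digestive tract. Its brighter probe (A_33_P3221748) read 3.95, 3.67, 4.03 and 3.56 with control siRNA and 3.96, 3.87, 3.90 and 4.34 with KHSRP siRNA. The groups overlapped, and the change was 0.22 (SE 0.16, adjusted p = 0.538). The other probe, A_23_P51231, read 1.70, 1.49, 1.68 and 1.30 with control siRNA and 1.97, 1.70, 1.49 and 1.96 with KHSRP siRNA, a change of 0.24 (SE 0.15, adjusted p = 0.461).

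Both RUNX3 probes were higher with KHSRP siRNA in 4 of 4 pairs numbered as in the series matrix, and at A_23_P51231 the differences lay between 0.20 and 0.28. For this count too the share over all tested probes is not given, and the pairing was taken from these same data. With that block, which called 30.1% of all tested probes, A_23_P51231 was called as higher (SE 0.060, adjusted p = 0.0326). The brighter probe was not (adjusted p = 0.0923). A_23_P51231 was called in 1 of 21 alternatives, with an adjusted p from 0.0326 to 0.9999. Of its relatives RUNX1 and RUNX2 and their common partner CBFB, 0 were called, against 6.19% of all genes, and the median change was -0.047. RUNX1 was called as higher with the series matrix block (a change of 0.36, adjusted p = 0.0168, and 0.685 without the block).

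TSC1 encodes hamartin, which with TSC2 restrains the growth kinase complex mTORC1. Its probe (A_24_P329635) read 0.20, 0.58, 0.44 and 0.15 with control siRNA and 0.91, 0.34, 0.45 and 0.42 with KHSRP siRNA. KHSRP siRNA replicate 1 lay above every other array, and the remaining values were mixed. The change was 0.19 (SE 0.16, 95% interval -0.19 to 0.56, adjusted p = 0.626), and 2 of 4 pairs were higher. It was called in 0 of 21 alternatives. Of 8 further genes of the TSC and mTORC1 complexes 7 were tested and 0 called, against 6.19% of all genes. Their median change was -0.011, and 0 had an unadjusted p under 0.05, against 19.6% of all tested probes. DEPTOR was not bright enough to be tested.

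CSF1 encodes the growth factor of macrophages. Its 3 probes carry different RefSeq transcripts, and none was well above background on all 8 arrays. A_33_P3354935 read -2.41, -2.37, -2.77 and -2.90 with control siRNA and -2.28, -2.97, -2.99 and -2.36 with KHSRP siRNA, and was well above background on all but KHSRP siRNA replicate 3. A_33_P3354940 read -2.68, -3.19, -2.40 and -3.07 with control siRNA and -2.67, -3.32, -2.32 and -2.10 with KHSRP siRNA, and was so on all but control siRNA replicate 4. The groups overlapped at both. The changes were -0.040 (SE 0.21, 95% interval -0.53 to 0.45, adjusted p = 0.957) and 0.23 (SE 0.28, 95% interval -0.42 to 0.88, adjusted p = 0.752), and the sign of the first flipped under normexp background correction, to 0.011. A_33_P3354945 was well above background on control siRNA replicate 2 alone and was not tested. The receptor CSF1R, its other ligand IL34 and CSF3 were not well above background on any array, and CSF2 had a change of -0.17 (SE 0.55, adjusted p = 0.924).

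**Figure D3:**
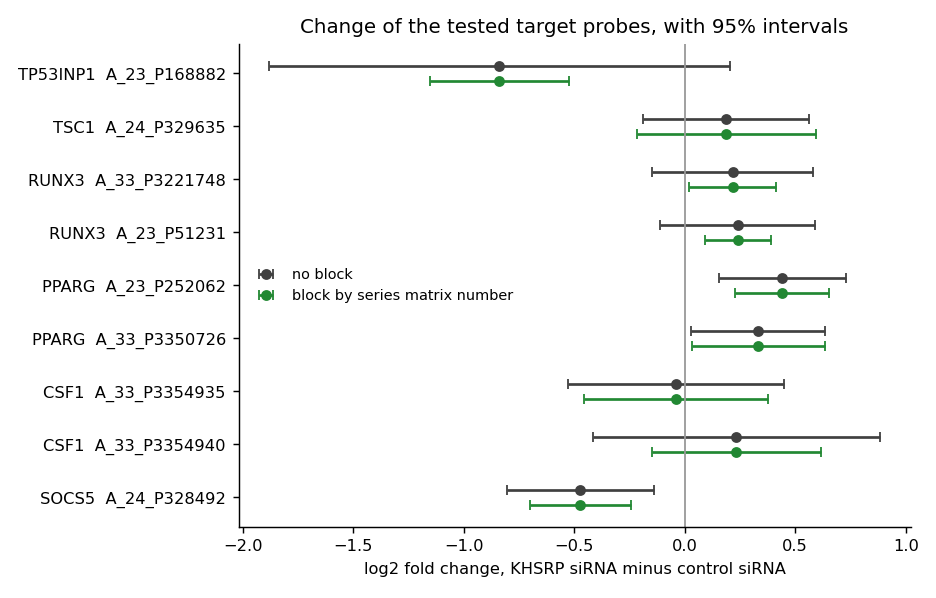
Change (log2, KHSRP siRNA minus control siRNA) of the 9 tested target probes with 95% intervals, in the fit without a block (grey) and with the series matrix block (green). The interval of TP53INP1 narrows from -1.88 to 0.20 without the block to -1.15 to -0.52 with it, and those of TSC1 and CSF1 span 0 in both.

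The remaining targets were at background. CYLD, a deubiquitinase that limits NF-κB signalling, and ZFPM2, a cofactor of GATA factors also known as FOG2, were well above background on 0 of 8 arrays (A_33_P3251771 and A_23_P168909). Their levels lay between -5.75 and -4.10 and between -5.52 and -3.68. MEOX2, a homeobox transcription factor, was well above background on KHSRP siRNA replicate 1 alone (A_24_P106624), at -4.47, and its other levels lay between -5.76 and -4.87. With these probes no difference between the groups could be measured, and no fold is given.

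**Figure D4:**
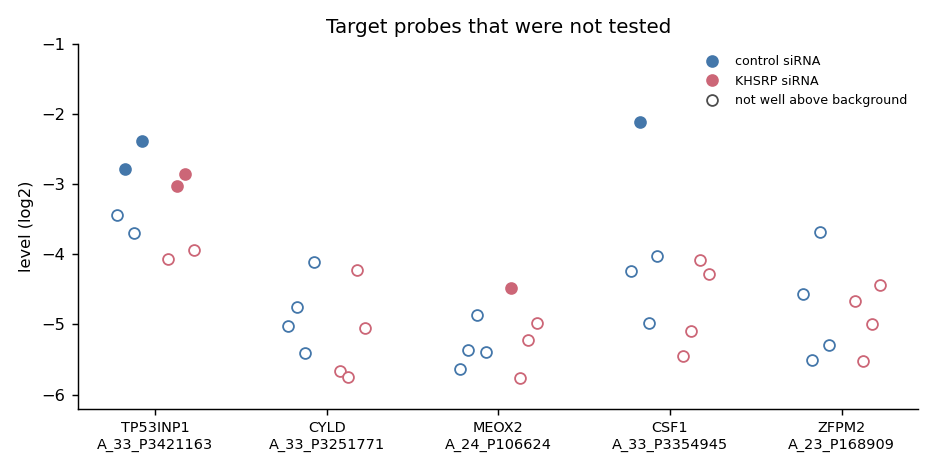
Level (log2, relative to the 75th percentile of the array) on the 8 arrays of the 5 target probes that were not tested, with blue for control siRNA and red for KHSRP siRNA. Filled points were well above background, which holds for 4 points of TP53INP1, 1 each of MEOX2 and CSF1, and 0 of CYLD and ZFPM2.

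Genes that work with CYLD and NKRF on NF-κB were measured more fully. All 15 inhibitors and core components on the list were tested and 0 were called, against 6.19% of all genes. Their median change was 0.050, and 1 gene had an unadjusted p under 0.05, against 19.6% of all tested probes. That gene was TNIP2, an NF-κB inhibitor, with a change of 0.28 (SE 0.098, adjusted p = 0.146, and 0.0246 with the series matrix block). The series matrix block called 4 of the 15, 2 of them higher, a share near the 30.1% of all tested probes that it called. Of 5 partners of MEOX2 and ZFPM2 (MEOX1, ZFPM1, GATA4, GATA6 and NR2F2) 3 were tested and 0 called, and GATA6 was called as higher with the series matrix block (a change of 0.30, adjusted p = 0.0341, and 0.752 without the block). Over all 61 partner genes, 51 were tested and 1 was called, against 6.19% of all genes. The median change was 0.059, and 28 were higher.

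A longer list of 23 mRNAs linked to the same miRNAs was written from general knowledge with earlier results of these data known. Of its 19 tested genes 2 were called, both higher, against 6.19% of all genes, and 14 were higher by point estimate, with a median change of 0.24. Of the 19, 6 had an unadjusted p under 0.05, against 19.6% of all tested probes. The list holds DICER1 and BMP6, which the study itself took as predicted targets from among the genes with higher signal on these arrays, so that their direction is not independent evidence. DICER1 had a change of 0.61 (SE 0.18, adjusted p = 0.0931) and BMP6 of 0.66 (SE 0.26, adjusted p = 0.197), and both were called with the series matrix block (adjusted p = 0.00289 and 0.00644). STARD13, PPARGC1A, ESR1 and TNF were not bright enough to be tested.

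BCL2L11 encodes BIM, which promotes cell death. Its level at A_24_P122921 was 0.56, 0.71, 0.72 and 0.77 with control siRNA and 1.54, 1.40, 1.77 and 1.61 with KHSRP siRNA, with a wide gap between the groups. The change was 0.89 (SE 0.12, 95% interval 0.62 to 1.16, adjusted p = 0.00471), and it was called in 8 of 8 fits that left out an array. A second BCL2L11 probe was called too (A_33_P3398526, 0.85, SE 0.19, adjusted p = 0.0403), though in 1 of those 8 fits, that without KHSRP siRNA replicate 1, and otherwise with an adjusted p from 0.0548 to 0.118. The third was not (A_33_P3251932, 0.43, SE 0.48, adjusted p = 0.723).

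KLF4, a transcription factor of epithelial differentiation, read -0.38, -0.34, -0.56 and -0.66 with control siRNA and 0.24, 0.028, -0.14 and 0.26 with KHSRP siRNA (A_23_P32233). The groups did not overlap. The change was 0.58 (SE 0.14, adjusted p = 0.0452). It kept its call in 1 of 8 fits that left out an array, that without KHSRP siRNA replicate 3, and without any other array the adjusted p was from 0.0819 to 0.122. With the series matrix block 11 of the 19 genes were called, 9 of them higher, in a fit that called 30.1% of all tested probes.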

How the data were processed

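Messenger RNA of 4 control siRNA and 4 KHSRP siRNA samples was read on one-colour arrays. The deposited scanner files hold linear fluorescence intensity, which the authors extracted with Agilent Feature Extraction (11.5.1.1 in the file headers, 12.6 in the submitters' processing notes), background-subtracted within each array. The authors also deposited log2 values in a series matrix, attributed by the methods to GeneSpring, whose values followed the log2 signal minus the 75th percentile of its array. Its columns for KHSRP siRNA replicates 3 and 4 correlated at 1.00 with the scanner values of each other, and column medians ran from -0.25 to 0.22. Scale and direction were thus known, and its centring beyond that shift was not.

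Control spots and flagged outlier spots were left out, and log2 processed signals were averaged per probe minus the 75th percentile of the array. A probe was well above background where 0.5 or more of its spots were, by the scanner's criterion. No spot was saturated. Between 19145 and 20938 probes per array were well above background, and the number of arrays limits the precision. Symbols came from RefSeq accessions (GRCh38.p14) for 27241 of 42405 probes. The probe with the highest mean level among those tested stood for a gene. Tests used limma 3.58.1 under R 4.3.3, two-sided and without a block, with moderated variances and Benjamini-Hochberg adjustment over all tested probes. The fit was tested on simulated data. Other steps used Python 3.11.15.

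Replicates 1 and 2 of both groups were on slide 1 and replicates 3 and 4 on slide 2. Deviations from the group means of same-numbered arrays correlated at 0.52, 0.43, 0.83 and 0.84 with the numbers of the series matrix. They correlated at 0.52, 0.43, -0.67 and -0.64 with those of the scanner files. The series matrix numbers were therefore used for the block that is given beside the reported fit, which itself has no block. Arrays on different slides deviated together too. Control siRNA replicates 1, 2, 3 and 4 correlated at 0.41, 0.42, 0.38 and 0.38 with KHSRP siRNA replicates 4, 3, 1 and 2. The correlations thus do not single out 1 pairing, and calls with the series matrix block rest on a pairing taken from these same data. Which deposited numbering is the right one is not given in the sources used here.

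The members and lists were chosen with earlier results of these data known. Named were all members, the called genes of each list, KHSRP and SKA2, and the 3 genes most like PPARG, except that some of these genes are not reported here. PPARA, PPARD, RXRA, NCOR1, HIPK2, TNIP2, SOCS1 to SOCS4, RUNX1, GATA6, DICER1 and BMP6, and the keratins beside TP53INP1, were named after their values were seen. Alternatives covered scaling (quantile, median, 75th percentile over detected probes), normexp correction of the median spot brightness (offset 50), the series matrix, the filter on dim probes, slide and replicate blocks, an intensity trend with robust variance, each slide alone, the mean of a gene's tested probes, and leaving out each array. Target sites in the mRNAs were not examined.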

Additional observations from a re-analysis of the deposited data

Results flagged for a closer look

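Of 26 groups of 4 arrays examined (the 9 tested target probes, KHSRP, SKA2, BCL2L11 and KLF4, in each siRNA group), 1 held an array that stood apart from the others by Dixon's criterion, which compares its gap to the next array with the whole range. About 1 in 20 groups would do so by chance. It was control siRNA replicate 4 at SKA2 (A_32_P55860), low at 0.16 where the nearest control read 0.42. No target probe had such an array.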

How the results depend on the processing

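A set of 22 alternatives was tried, 8 of them leaving out a single array. Of 187 values of single target probes, 175 kept their sign and their side of the threshold, 5 became called (all under the series matrix block or, for PPARG A_23_P252062, also the slide block) and 7 changed sign, all at CSF1. CSF1 A_33_P3354935 turned to 0.011 under normexp correction and 0.16 within slide 2 and ran from -0.16 to 0.074 without single arrays, and CSF1 A_33_P3354940 turned to -0.058 within slide 1. The cause was not tested. The number of called member genes was 0 in every alternative but the slide block (1) and the series matrix block (3). In paired fits, the replicate block by scanner file numbers called 156 probes in all, and 0 members, 0 further reported targets and 0 partner genes, and the series matrix block 5644 probes, 11 further targets and 11 partner genes. Within either slide alone (2 arrays against 2) limma called 0 probes, and so 0 further targets and 0 partners, with 2112 and 1022 probes at an unadjusted p under 0.05. KHSRP was then not called, although its change was -3.37 within slide 1 and -3.37 within slide 2. Over all probes, median scaling called 570 (17.2% of them higher, beside 34.6% in the reported fit) and testing every probe without the filter 319, and leaving out single arrays gave 489 to 766, where fewer samples entered. Further targets called fell from 2 to 1 under median scaling, normexp, no filter, trend with robust variance and the mean of a gene's probes, and were 1 to 2 without single arrays. Partner genes called fell from 1 to 0 under median scaling, the 75th percentile of detected probes and no filter, and were 0 to 1 without single arrays. Signal over background limits CSF1, and kept CYLD, MEOX2 and ZFPM2 from being tested.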
